A study of Mus musculus with 12 samples.

Results

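Potassium channels were followed through 66 genes in vHPC neurons that project to NAc and in the vHPC tissue around them, in WT and FosB KO mice. The 66 are the protein-coding genes of Gencode vM1 whose symbol starts with Kcn and whose mean raw count over the 12 libraries was 10 or more, out of 96 protein-coding Kcn genes and 37310 genes in all. The members were chosen by their mean count alone, over both genotypes and both kinds of library together. Their overall abundance is therefore not a finding. A gene can also reach that mean through 1 kind of library alone, which was so for 1 member, Kcnj16, with a mean of 4.83 counts in TRAP and 73.3 in input. The 66 genes have 65 symbols, because the annotation splits Kcnb2 into 2 gene models that lie 0.674 kb apart on chromosome 1. Just inside the threshold were Kcnk4 with a mean of 11.5 counts, Kcnj14 with 12 and Kcnh6 with 15, and just outside were Kcna5 with 9.50, Kcnh4 with 7.33, Kcnmb2 with 7.08 and Kcnk6 with 5.75. Of the 30 Kcn genes below the threshold, 9 had no count in any library.

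All mice were C57BL/6 and carried Rosa26 eGFP-L10a, which encodes a ribosomal protein fused to GFP that is made only after Cre has acted, and all received retrograde HSV-Cre in NAc 3 weeks before vHPC was punched. WT mice had no floxed FosB allele, whereas KO mice were FosB fl/fl, so that Cre removed exons of FosB in the same neurons that it tagged. The vector is the only source of Cre, hence cells of KO tissue that the vector did not reach still carried FosB, and they are part of the input libraries. Each genotype had 3 pools of mice, with 3 mice in each pool by the labels and up to 4 by the methods, and each pool gave 1 TRAP library, of mRNA on GFP-tagged ribosomes, and 1 input library, of all RNA from the punch. The methods name hEf1α as the promoter of retrograde HSV-Cre in a staining experiment, and the ages of these mice were not given in the sources used here.

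Potassium channels set the resting potential, repolarize the action potential and determine how readily a neuron fires again. Voltage-gated Kv1 to Kv4 channels (Kcna to Kcnd) shape single spikes and dendritic signals, Kv7 channels (Kcnq) carry the M-current that restrains repetitive firing, and calcium-activated channels (Kcnma1 and Kcnn) carry the currents of the afterhyperpolarization. Inward rectifiers (Kcnj) and two-pore channels (Kcnk) hold the resting potential, and auxiliary subunits (Kcnab, Kcnip) or electrically silent subunits (Kcnf, Kcng, Kcns, Kcnv) modify the pores that they join. The study recorded the excitability of these projection neurons with and without FosB, and the expression of channel genes in the same circuit bears on that question.

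Between 3416030 and 5614089 reads were counted on genes in each library, and the 66 genes took 0.280% to 0.320% of them, with overlapping ranges in TRAP (0.286% to 0.311%) and input (0.280% to 0.320%). Levels are given as CPM, the library's counts brought to a common total, scaled by the TMM factors of edgeR. Before that scaling, 3 counts amount to 0.534 to 0.878 CPM, the floor of detection by counting error alone. WT input 1 had counts on 15678 genes, whereas the other inputs had counts on 17255 to 18090. The 3 WT TRAP libraries held 45.2, 32.0 and 40.1 CPM of Fosb, each above the 29.3, 18.8 and 21.5 CPM of KO TRAP. Input libraries held 30.2, 22.2 and 24.4 CPM in WT, each above the 17.0, 16.0 and 14.8 CPM in KO. The paper reports FosB expression as almost absent from the mRNA purified from KO mice. Reads of exons that Cre leaves in place count toward all the values given here, so these do not measure how completely FosB was removed. Markers of other cells were lower in TRAP than in input. The test was passed by 8 of 8 astrocyte, 8 of 8 oligodendrocyte, 7 of 7 microglial and 9 of 10 GABA neuron genes. Of 7 endothelial and pericyte genes, 5 were tested and 4 were called lower. Of 8 glutamate neuron genes, 4 were called higher. Over all genes, 19.6% were called higher and 22.5% lower. The labelled cells are hippocampal neurons, and the markers of other cells were lower in TRAP but not at 0, since the 10 GABA neuron genes summed to 182 to 651 CPM there, against 878 to 1042 CPM in input. The highest TRAP sum was that of KO TRAP 2, and the other KO TRAP libraries had 182 and 190.4 CPM.

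FosB is part of the AP-1 transcription factor, so the 250 bases upstream of the annotated 5′ start of each gene were read from NCBIM37 (mm9), the build of the counts. The AP-1 motif TGANTCA, which reads the same on both strands, was present upstream of 1 of the 66 genes (1.52%) and of 6.00% of 22380 protein-coding genes. The related CRE motif TGACGTCA was upstream of none of the 66 and of 1.91% of all. These are matches of letters in a short window and are not evidence of binding or of its absence. The gene with the match was Kcnip3, which encodes a calcium-binding Kv4 partner. Its window is shown with the motif in capitals, 122 bases before the start, beside the windows of Kcng1 and Kcnab2, which had the smallest p-values between KO and WT TRAP and hold neither motif.
Kcnip3, chr2:127347831-127348080, minus strand: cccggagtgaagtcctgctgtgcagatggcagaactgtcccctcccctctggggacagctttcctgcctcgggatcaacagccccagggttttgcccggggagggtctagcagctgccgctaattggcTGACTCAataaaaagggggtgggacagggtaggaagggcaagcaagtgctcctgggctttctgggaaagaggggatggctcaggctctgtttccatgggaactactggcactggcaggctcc
Kcng1, chr2:168107237-168107486, minus strand: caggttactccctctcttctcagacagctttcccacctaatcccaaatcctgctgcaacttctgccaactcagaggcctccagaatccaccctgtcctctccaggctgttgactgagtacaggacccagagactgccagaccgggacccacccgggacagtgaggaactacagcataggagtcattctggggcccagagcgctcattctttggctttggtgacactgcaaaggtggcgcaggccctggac
Kcnab2, chr4:151851981-151852230, minus strand: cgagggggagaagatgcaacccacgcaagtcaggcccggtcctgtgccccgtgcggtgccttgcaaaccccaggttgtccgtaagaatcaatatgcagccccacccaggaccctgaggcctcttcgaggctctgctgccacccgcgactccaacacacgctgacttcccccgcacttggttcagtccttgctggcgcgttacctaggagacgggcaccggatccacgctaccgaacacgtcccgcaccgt

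Auxiliary subunits gave the most abundant channel mRNAs of the tagged neurons, as of the whole tissue. Per kb of exon, Kcnab2, a cytoplasmic β subunit of Kv1 channels, was highest in WT TRAP at 110.4 CPM per kb, ahead of Kcnip3 at 54.6 and Kcnip2 at 43.4 CPM per kb, both partners of Kv4 channels. The same 3 genes led in WT input, at 78.1 CPM per kb for Kcnab2, 38.0 for Kcnip3 and 45.3 for Kcnip2. The highest inward rectifier was Kcnj4 (Kir2.3) at 25.0 CPM per kb, the highest silent subunit Kcng1 at 22.6, the highest ether-à-go-go type channel Kcnh3 at 20.7 and the highest calcium-activated channel Kcnma1, the BK pore, at 18.6 CPM per kb. Lower leaders were Kcnc4 at 16.0, the two-pore gene Kcnk1 at 15.2, Kcna1 at 9.49, Kcnd2 at 8.25, the SK gene Kcnn2 at 7.85 and the sodium-activated Kcnt1 at 2.47 CPM per kb, all in WT TRAP. No Kcne gene reached the threshold, and Kcnu1, a channel known from sperm, was at 1.26 CPM per kb. The annotated exons of Kcng2 cover only 705 bases, so that its 18.0 CPM per kb rests on few counts.

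Summed over a class, the 3 Kcnab genes took 26.1% of all potassium channel CPM in WT TRAP and 18.0% in WT input. Their sum lay between 697 and 884 CPM in WT TRAP, between 601 and 708 CPM in KO TRAP, and between 492 and 572 CPM over the inputs, so TRAP did not overlap with input. The 8 silent subunits summed to 245 to 348 CPM in TRAP and 188 to 256 CPM in input, with a small overlap. In the other direction, the 4 Kcnc genes, whose Kv3 channels allow fast spiking, summed to 149.8 to 192 CPM in TRAP and 229 to 293 CPM in input. The 4 Kcnq genes summed to 286 to 369 CPM in TRAP and 259 to 384 CPM in input, and these ranges overlapped.

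**Figure D1:**
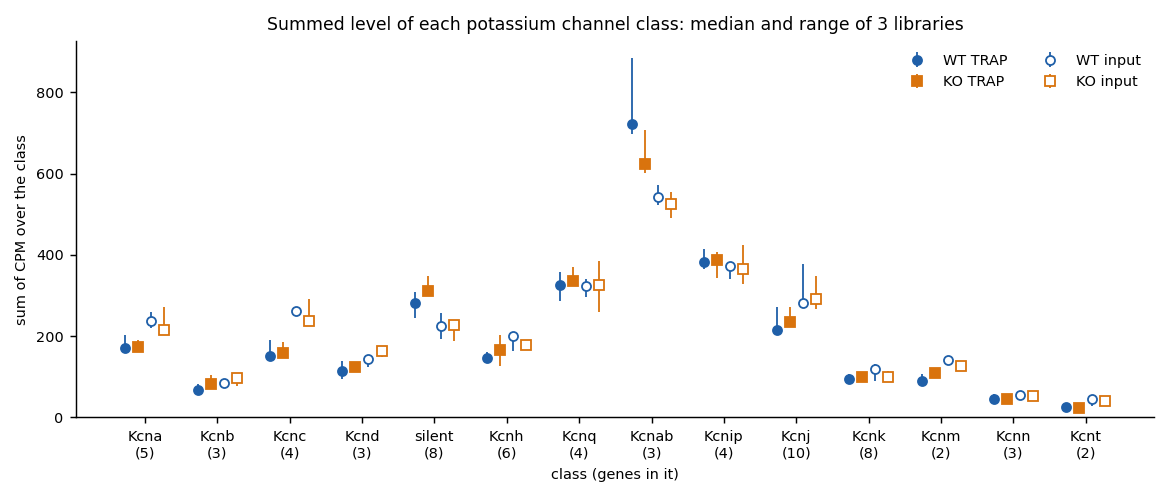
Summed CPM (vertical axis) of each class of potassium channel genes (horizontal axis, with the number of genes) in both genotypes and both kinds of library; points are medians and lines the range of 3 libraries. Kcnab lies higher in TRAP than in input, and Kcna, Kcnc and Kcnm lie lower, without overlap. The ranges of the silent subunits and of Kcnj touch.

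TRAP was compared with input to ask which channel genes are higher or lower in the tagged neurons than in the tissue as a whole. Over both genotypes, 10 of the 66 genes were higher in TRAP and 25 were lower (edgeR's quasi-likelihood test, Benjamini-Hochberg adjusted p under 0.05 over 13214 genes). The 35 called are 53.0% of the members, where 42.2% of all genes tested were called. The 10 higher are 15.2%, against 19.6% of all genes. The 25 lower, Kcnj16 among them, are 37.9%, against 22.5% of all genes. Kcnj16 was chosen through its input counts, which favours a lower value in TRAP, so its call is not read as a result. The median log2 ratio of the members was -0.32, that of all genes -0.01. TRAP and input did not overlap for 16 of the 66 (24.2%), against 22.5% of all genes. Of the 10 higher, 8 were higher in all 6 pools, and of the 25 lower, 20 were lower in all 6 pools. The calls came from these same pools, so the shared signs are no separate support. In bulk libraries, fewer cells of a type and less RNA per cell cannot be told apart.

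**Figure D2:**
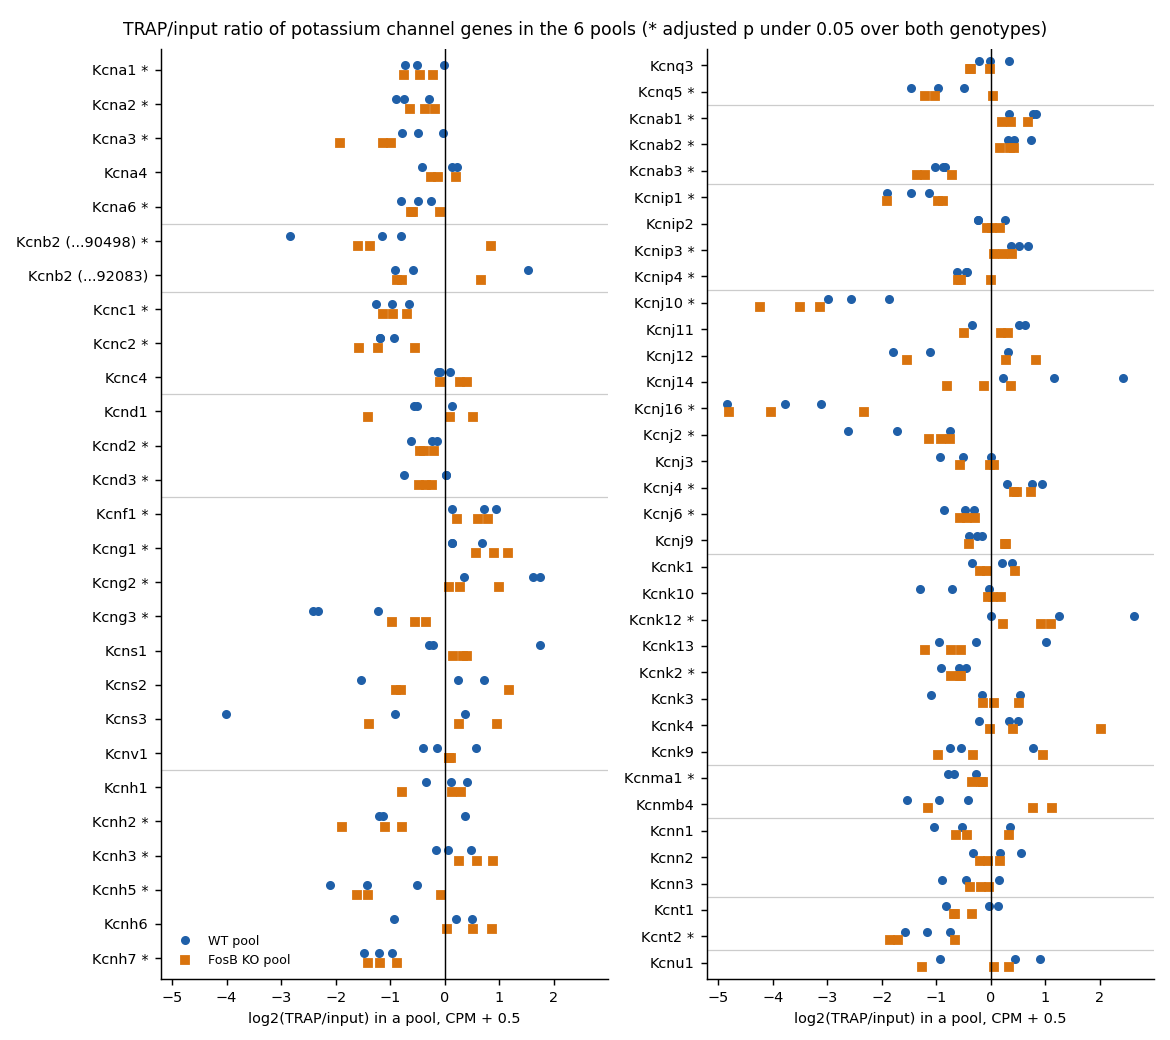
The log2 ratio of TRAP to input CPM (horizontal axis, 0.5 added to each CPM) in each pool, for potassium channel genes by class; circles are WT pools and squares KO pools, and an asterisk marks an adjusted p under 0.05 over both genotypes. Kcnj10 and Kcnj16 lie furthest to the left, the latter chosen through its input counts, and no Kv1 to Kv4 gene with an asterisk has a ratio above 0 over both genotypes.

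The steepest fall was in the glial inward rectifiers. Kcnj10, which encodes Kir4.1, the channel by which astrocytes and oligodendrocytes take up potassium, measured 5.51, 4.47 and 3.72 CPM in WT TRAP, against 1.39, 1.95 and 3.42 CPM in KO TRAP. In input it measured 21.5, 29.1 and 33.0 CPM in WT and at 35.3, 27.1 and 34.0 CPM in KO. Every TRAP library was below every input library, by a log2 ratio of -3.19 (SE 0.22, edgeR adjusted p = 3.91e-12), or 9.15-fold. Kcnj16, whose product Kir5.1 joins Kir4.1, measured 2.49, 0 and 0.531 CPM in WT TRAP, at 2.51, 0.975 and 0 CPM in KO TRAP, and at 13.5 to 25.2 CPM in the 6 inputs. Since Kcnj16 met the count threshold through input only, its fall follows in part from the choice of members and is given as a description, with no test. The 8 astrocyte markers had a median log2 ratio of -3.02 and summed to 324 to 420.0 CPM in TRAP and 1982 to 2444 CPM in input. The part of these cells in the result was not tested.

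Neighbours of these genes on the chromosome had other values. Kcnj9 (ENSMUSG00000038026.7), which encodes the neuronal GIRK3, lies back to back with Kcnj10 (ENSMUSG00000044708.4) on chromosome 1 of mm9, with 11.9 kb between their starts. It measured 55.5, 49.1 and 51.0 CPM in WT TRAP, against 73.7, 55.2 and 61.2 CPM in WT input, and its log2 ratio was -0.12 (SE 0.11, edgeR adjusted p = 0.42). The interval of that ratio, from -0.35 to 0.11, lies above that of Kcnj10, from -3.64 to -2.75. Kcnj2 (Kir2.1), which starts 38.2 kb after Kcnj16 on chromosome 11, fell by a log2 ratio of -1.18 (SE 0.41, edgeR adjusted p = 0.020), with 0.470 to 5.51 CPM in TRAP and 4.88 to 9.57 CPM in input. The Kcnj2 call was lost without WT pool 3 (edgeR adjusted p = 0.060) and without KO pool 4 (0.072).

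Of the 10 Kcnj genes, 5 were called in all, Kcnj16 included, against 42.2% of all genes, and 1 of them was higher, against 19.6%. Kcnj4, the Kir2.3 pore, measured 68.1, 47.7 and 45.2 CPM in WT TRAP, at 45.2, 49.0 and 43.2 CPM in KO TRAP, at 40.0, 24.7 and 36.6 CPM in WT input and at 27.0, 36.6 and 30.9 CPM in KO input. All TRAP libraries were above all inputs, and the log2 ratio was 0.61 (SE 0.14, edgeR adjusted p = 0.00073). Of the G protein-gated channels, Kcnj6 (GIRK2) was lower in TRAP by -0.48 (SE 0.13, edgeR adjusted p = 0.0050), while Kcnj3 (GIRK1) had a log2 ratio of -0.37 that missed the threshold (SE 0.16, edgeR adjusted p = 0.083). A share of 31.1% of the exons of Kcnj3 overlaps a gene on the other strand, and the strand setting of the counting is not given in the sources used here, so its level is uncertain. Kcnj8, the Kir6.1 pore of pericytes, had a mean of 0.917 counts and is no member.

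Voltage-gated Kv1 to Kv4 genes were lower in TRAP or missed the threshold. Of the 15, none was called higher and 10 were called lower, which is 4 of 5 Kcna, 1 of 3 Kcnb, 3 of 4 Kcnc and 2 of 3 Kcnd genes. Over all genes 19.6% were called higher and 22.5% lower. The median log2 ratio was -0.42. At an unadjusted p under 0.05, edgeR also gave 0 higher and 10 lower, where 23.2% of all genes were higher and 25.7% lower, or 48.9% in all.

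Of the Kv3 genes, 3 of 4 were lower, against 22.5% of all genes. Kcnc1 (Kv3.1), known from fast-spiking interneurons, measured 68.8, 49.9 and 44.4 CPM in WT TRAP and 109, 97.7 and 108 CPM in WT input, with 54.4, 43.4 and 59.4 CPM in KO TRAP against 88.5, 95.6 and 115 CPM in KO input. Its log2 ratio was -0.93 (SE 0.11, edgeR adjusted p = 1.52e-07). Kcnc2 (Kv3.2) measured 25.1, 25.4 and 23.4 CPM in WT TRAP and 48.4, 58.6 and 54.2 CPM in WT input, with 21.5, 25.1 and 19.3 CPM in KO TRAP against 50.6, 36.8 and 58.2 CPM in KO input. Its log2 ratio was -1.14 (SE 0.13, edgeR adjusted p = 8.28e-08), and for both genes TRAP and input did not overlap. Kcnc4 (Kv3.4) had a log2 ratio of 0.08 (SE 0.13, edgeR adjusted p = 0.69). The 10 GABA neuron markers had a median log2 ratio of -1.72, and whether interneuron mRNA has a part in the Kv3 values was not tested.

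Of the 8 Kv1 and Kv4 genes, 6 were called lower, against 22.5% of all genes. Kcna1 and Kcna2, which form axonal low-threshold channels, fell by 0.42 (SE 0.11, edgeR adjusted p = 0.0041) and 0.53 on the log2 scale (SE 0.12, edgeR adjusted p = 0.00098). Kcna3 fell by 0.98 and Kcna6 by 0.49, but 39.5% of the exons of Kcna6 overlap a gene on the other strand, so its level is uncertain. Kcna4, the A-type Kv1 pore, measured 33.1, 39.0 and 32.1 CPM in WT TRAP and 44.1, 35.5 and 27.5 CPM in WT input, and its log2 ratio was -0.04 (SE 0.13, edgeR adjusted p = 0.81). Kcnd2 and Kcnd3, the Kv4.2 and Kv4.3 pores of dendritic A-type current, fell by 0.33 (SE 0.11, edgeR adjusted p = 0.014) and 0.28 (SE 0.11, edgeR adjusted p = 0.038).

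The gene models of Kcnb2 (Kv2.2) gave different values. The model with ENSMUSG00000092083.1 had a log2 ratio of -0.19 (SE 0.27, edgeR adjusted p = 0.61), at 7.08 to 15.1 CPM in TRAP, and Kcnb2 (ENSMUSG00000090498.1), which follows it on the same strand, had -1.20 (SE 0.42, edgeR adjusted p = 0.021), at 0.941 to 6.83 CPM in TRAP and 3.55 to 9.84 CPM in input. The second call was lost without WT pool 2 (edgeR adjusted p = 0.15), without KO pool 2 (0.13) and without KO pool 4 (0.091).

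Electrically silent Kv subunits form channels only together with Kv2 pores, and of the 8 genes 3 were higher in TRAP, against 19.6% of all genes, and 1 was lower, against 22.5%. The 4 called of 8 are near the 42.2% called among all genes. Kcng1 rose by 0.59 on the log2 scale over both genotypes (SE 0.12, edgeR adjusted p = 0.00024) and Kcnf1 also by 0.59 (SE 0.12, edgeR adjusted p = 0.00036), each in 6 of 6 pools. In the separate fits the Kcng1 ratio was 0.87 in KO (edgeR adjusted p = 1.92e-05) and 0.31 in WT, where it was not called (edgeR adjusted p = 0.25). Kcng2 rose by 0.81 (SE 0.28, edgeR adjusted p = 0.022), with 7.56 to 17.5 CPM in TRAP and 2.61 to 8.93 CPM in input. The Kcng2 call was lost without WT pool 3 (edgeR adjusted p = 0.14) and without KO pool 2 (0.085). Kcng3 went the other way, from 4.02 to 12.8 CPM in input to 1.33 to 5.37 CPM in TRAP, a log2 ratio of -1.42 (SE 0.33, edgeR adjusted p = 0.00083), lower in 6 of 6 pools. Its ratio was -2.16 in the fit of WT (edgeR adjusted p = 0.0035) and -0.70 in that of KO, where it was not called (edgeR adjusted p = 0.26).

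Auxiliary subunits also went both ways. Kcnab2 measured 556, 734 and 557 CPM in WT TRAP and 448, 442 and 417 CPM in WT input, with 459, 561 and 485 CPM in KO TRAP against 362, 419.7 and 434 CPM in KO input. All TRAP values lay above all inputs, and the log2 ratio was 0.40 (SE 0.08, edgeR adjusted p = 0.00012). Kcnab1 rose by 0.51 (SE 0.10, edgeR adjusted p = 0.00013), also without overlap, whereas Kcnab3 fell by 1.02 on the log2 scale (SE 0.20, edgeR adjusted p = 0.00021). Kcnip3 rose by 0.37 (SE 0.09, edgeR adjusted p = 0.0014). Kcnip1, a Kv4 partner known from interneurons, fell by 1.39 on the log2 scale (SE 0.23, edgeR adjusted p = 2.56e-05), from 14.4 to 24.7 CPM in input to 4.45 to 11.1 CPM in TRAP. Kcnip4 fell by 0.44 (SE 0.12, edgeR adjusted p = 0.0030), and Kcnip2 had a log2 ratio of -0.02 (SE 0.09, edgeR adjusted p = 0.89).

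Of the Kv7 genes, Kcnq3, a subunit of the M-current, had a log2 ratio of -0.14 (SE 0.15, edgeR adjusted p = 0.48). Kcnq5 fell by 0.86 on the log2 scale (SE 0.14, edgeR adjusted p = 2.45e-05), from 42.4 to 71.2 CPM in input to 25.6 to 43.4 CPM in TRAP.

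Calcium-activated channels gave 1 call among 5 genes, against 42.2% of all genes. Kcnma1, the BK pore, fell by 0.40 on the log2 scale (SE 0.09, edgeR adjusted p = 0.00064), with 78.1 to 115 CPM in TRAP below 115 to 136 CPM in input. The SK genes Kcnn1, Kcnn2 and Kcnn3 had log2 ratios of -0.35, 0.02 and -0.30, none of which passed the test, with intervals from -0.92 to 0.22, from -0.31 to 0.35 and from -0.73 to 0.12. Kcnt2, a sodium-activated channel, fell by 1.37 (SE 0.28, edgeR adjusted p = 0.00027), and Kcnt1 had -0.39 (edgeR adjusted p = 0.074).

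Two-pore genes gave 2 calls among 8, against 42.2% of all genes. Kcnk12 (THIK-2) had the largest rise of all 66 genes, from 1.74, 5.95 and 7.93 CPM in WT input and 5.21, 5.32 and 8.06 CPM in KO input to 13.3, 14.8 and 7.97 CPM in WT TRAP and 11.7, 10.5 and 9.53 CPM in KO TRAP. Its log2 ratio was 0.97 (SE 0.28, edgeR adjusted p = 0.0071), and the ratio of single pools ran from 0.01 to 2.63, the latter in the pool of WT input 1. Without that pool the edgeR log2 ratio was 0.76 with an adjusted p of 0.023. Kcnk2 (TREK-1) fell by 0.65 (SE 0.13, edgeR adjusted p = 0.00028). Kcnk13 (THIK-1), a relative of Kcnk12 known from microglia, measured 14.2 CPM in WT input 1 and at 1.14 to 5.23 CPM in the other inputs, and its log2 ratio of -0.70 missed the threshold (SE 0.44, edgeR adjusted p = 0.22).

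In the Kcnh class 1 of 6 genes rose and 3 fell, where 19.6% of all genes rose and 22.5% fell. Kcnh3, the Kv12.2 pore, rose by 0.36 on the log2 scale (SE 0.11, edgeR adjusted p = 0.011), in 5 of 6 pools. Its ratio was 0.60 in the fit of KO alone (edgeR adjusted p = 0.0033) and 0.12 in that of WT alone, where it was not called (edgeR adjusted p = 0.66). Kcnh2 (erg1) and Kcnh5 fell by 0.97 and 1.11. Kcnh7 (erg3) fell by 1.20 (SE 0.12, edgeR adjusted p = 3.47e-09), with 24.9 to 34.6 CPM in TRAP and 63.7 to 78.3 CPM in input.

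**Figure D3:**
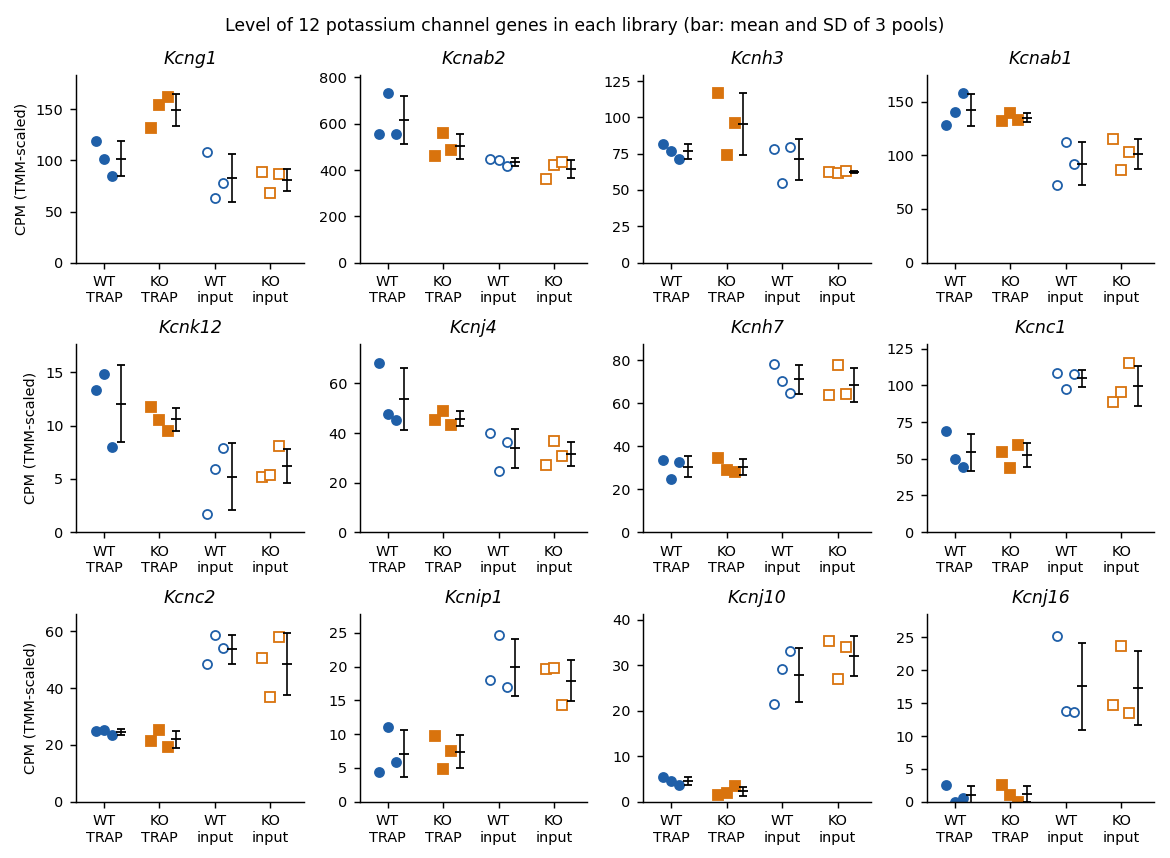
CPM (vertical axis, from 0) of 12 potassium channel genes in each of the 12 libraries, by genotype and kind of library; the bar beside the points is the mean with its SD over 3 pools. Kcng1 is higher in KO TRAP than in the other groups, Kcnc1, Kcnc2, Kcnip1, Kcnj10 and Kcnj16 are lower in TRAP than in input, and so is Kcnh7.

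Fits of each genotype on its own gave 5 higher and 16 lower of 65 genes tested in WT, where 24.9% of all genes were called (11.8% higher and 13.1% lower), and 7 higher and 15 lower of 66 in KO, where 29.1% were called (13.2% higher and 15.9% lower). Called in both were 4 higher genes (Kcnab1, Kcnab2, Kcnf1 and Kcnj4), which is 4 of the 5 in WT and 4 of the 7 in KO. Lower in both were 11 genes (among them Kcnab3, Kcnc1, Kcnc2, Kcnh7, Kcnip1, Kcnj10, Kcnk2, Kcnq5 and Kcnt2), of 16 in WT and 15 in KO. The lower counts include Kcnj16, whose choice through input favours a lower value in TRAP, so it is not read as a result. Called over both genotypes but in neither fit alone were Kcna6, Kcnd2, Kcng2, Kcnh5, Kcnj2, Kcnj6 and Kcnk12. In WT alone Kcna2, Kcnb2 (ENSMUSG00000090498.1), Kcng3, Kcnip3, Kcnip4 and Kcnma1 were called and missed the threshold in KO, and in KO alone this was so for Kcna1, Kcna3, Kcnd3, Kcng1, Kcnh2 and Kcnh3, among others. Each of these genes had the same sign in both fits. The WT and KO fits share no library. How many of all genes were called in both was not counted, so the shared calls are not read as particular to the members. These counts moved with single pools: leaving out each in turn gave 0 to 3 higher and 6 to 18 lower in WT (0 and 6 without WT pool 3, 3 and 8 without WT pool 2), and 1 to 4 higher and 7 to 14 lower in KO (1 and 7 without KO pool 4).

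The members that rose had exons richer in G and C. The median GC content was 57.8% for the 10 higher genes, 48.8% for the 25 lower and 55.1% for the 31 not called. Over all genes tested it was 52.4% for those higher and 48.0% for those lower. Across the 66 genes, the log2 ratio had a Spearman's rho of 0.47 with the GC content of the exons and -0.31 with their length, against 0.20 and -0.24 across 13214 genes, a description in which all points share the same 12 libraries. The part of base composition in the ratios was not tested.

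KO was compared with WT in TRAP libraries to ask whether channel expression in the tagged neurons differs without FosB. Of the 64 genes that passed the expression filter, which Kcnj16 did not, none was called with edgeR, where 0.0682% of all genes were called, and none with DESeq2. At an unadjusted p under 0.05, edgeR gave 3 of the 64 (4.69%), against 6.05% of all genes, and DESeq2 gave 2. KO and WT did not overlap for 7 of the 64 (10.9%), against 11.9% of all genes. These were Kcng1 and Kcng3, higher in KO, and Kcna3, Kcna6, Kcnip3, Kcnj10 and Kcnu1, lower in KO.

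Kcng1 (ENSMUSG00000074575.4), which encodes the silent subunit Kv6.1 on chromosome 2 of mm9 from 168085617 to 168107236, had the smallest p. It measured 119, 101 and 85.0 CPM in WT TRAP, against 132, 155 and 162 CPM in KO TRAP, so that every KO library was above every WT library. In input it measured 108, 62.9 and 77.5 CPM in WT and at 88.3, 68.5 and 86.7 CPM in KO, and there the groups overlapped. The log2 difference in TRAP was 0.55 (SE 0.13, interval from 0.29 to 0.82, unadjusted p = 0.00023, adjusted p = 0.13 with edgeR), or 1.47-fold, and -0.02 in input (SE 0.18, interval from -0.40 to 0.35). The exact permutation test gave p = 0.10 in TRAP, the smallest that 3 pools against 3 allow. The call depends on the setting, since the adjusted p was 0.0062 with all genes of at least 1 count, 0.015 without WT pool 1, and ran up to 0.97 over 14 alternatives, while the difference ran from 0.44 to 0.69 over the same alternatives.

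Kcnab2 (ENSMUSG00000028931.5), on chromosome 4 from 151764851 to 151851980, averaged 502 ± 52.9 CPM over the KO TRAP libraries and 616 ± 102 CPM over the WT TRAP libraries (SD, n = 3 each), and 1 KO value lay above 2 of the WT values. Its log2 difference was -0.29 (SE 0.11, unadjusted p = 0.013, adjusted p = 0.73 with edgeR), and it ran from -0.38 to -0.14 over the alternatives, the latter without WT pool 2. Kcnh3, which encodes the subthreshold channel Kv12.2, measured 81.6, 77.1 and 71.2 CPM in WT TRAP, against 117, 74.1 and 96.0 CPM in KO TRAP, a log2 difference of 0.31 (SE 0.15, unadjusted p = 0.044, adjusted p = 0.81 with edgeR). Leaving out each pool in turn moved the Kcnh3 value from 0.15 (without KO pool 2) to 0.47 (without KO pool 3). Neither Kcnab2 nor Kcnh3 can be called changed. Kcng1 and Kcnab2 had been listed by the study from these same libraries, so their direction here is not independent evidence.

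The 95% intervals show what these libraries could resolve. In TRAP the interval lay within 1 log2 unit on either side of 0 for 39 of the 64 genes and within 0.5 for 16. Kcnma1 had a difference of 0.23 with an interval from -0.04 to 0.51, Kcnd2 of 0.07 with an interval from -0.27 to 0.41 and Kcna1 of -0.02 with an interval from -0.39 to 0.35. For low genes the interval was wide, as for Kcnj2 with a difference of 0.59 and an interval from -0.85 to 2.03.

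In the input libraries, none of the 66 genes was called with edgeR, where 0.0312% of all genes were called, and none with DESeq2. At an unadjusted p under 0.05, both edgeR and DESeq2 gave 2, which is 3.03% of the 66 against 2.89% of all genes with edgeR. KO and WT did not overlap for 4 of the 66 (6.06%), against 8.37% of all genes. Kcnd3 (Kv4.3) measured 72.8, 76.4 and 59.9 CPM in WT input and at 80.2, 93.2 and 96.3 CPM in KO input, a log2 difference of 0.37 (SE 0.14, unadjusted p = 0.019, adjusted p = 1.0 with edgeR). Kcnj14 (Kir2.4) measured 0.290, 1.14 and 1.76 CPM in WT input, the first of these from WT input 1, and at 3.08, 4.21 and 3.49 CPM in KO input, a log2 difference of 1.68 (SE 0.65, unadjusted p = 0.019, adjusted p = 1.0 with edgeR). Of the 75-base stretches of its exons, 86.7% match chromosome 1 as well with at most 2 mismatches, and reads with several places are kept apart from the genes in the count files, so the level of Kcnj14 is uncertain. For 53 of the other 65 members no such stretch was found, and for the remaining 12 the share was at most 2.61%.

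**Figure D4:**
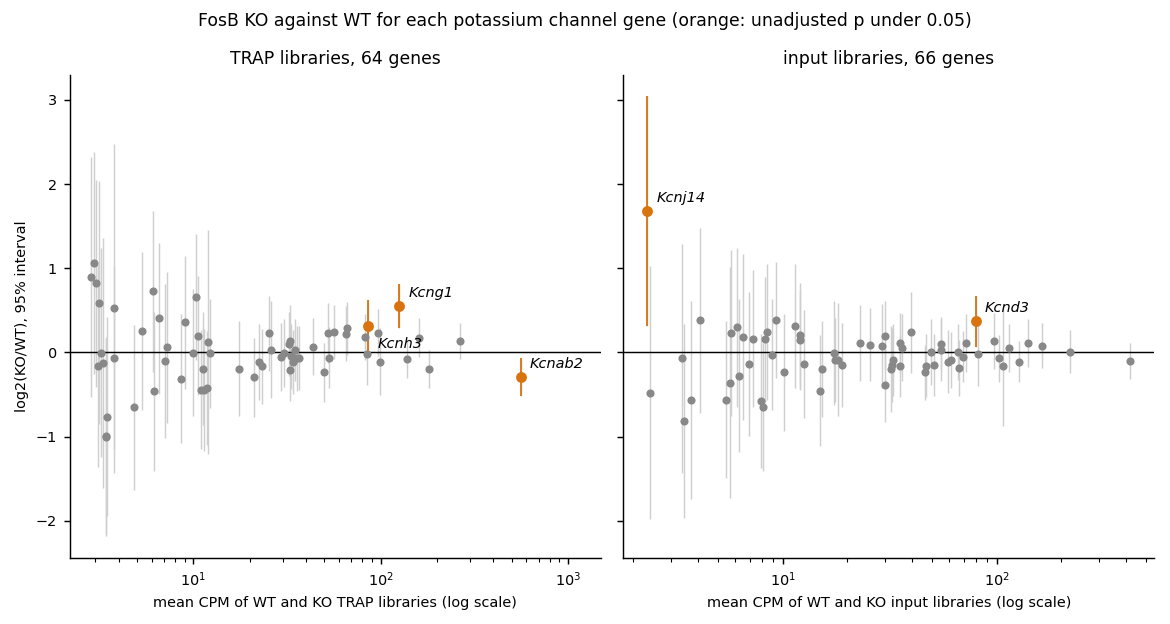
The log2 difference of KO from WT with its 95% interval (vertical axis) against mean CPM (horizontal axis, log scale) for each gene in TRAP (left, 64 genes) and input (right, 66 genes); orange marks an unadjusted p under 0.05. Intervals narrow with the level, and Kcng1 at 0.55 in TRAP is the orange point farthest from 0 there.

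The difference between KO and WT in the TRAP/input ratio was tested by itself in the fit of all 12 libraries. None of the 66 genes was called with edgeR, where 0.00757% of all genes were, and none with DESeq2. An unadjusted p under 0.05 was reached by 5 with edgeR (7.58%, against 2.71% of all genes) and by 4 with DESeq2. They were Kcnj10, Kcng1, Kcng3, Kcnh3 and Kcnmb4, each with an adjusted p of 1.0 (edgeR). For Kcnj10 the ratio was -1.87, -2.57 and -2.99 on the log2 scale in the WT pools and -4.24, -3.49 and -3.14 in the KO pools, without overlap. For Kcng1 it was 0.13, 0.68 and 0.13 in the WT pools and 0.58, 1.17 and 0.90 in the KO pools, with overlap.

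Partners of potassium channels whose symbol does not start with Kcn were counted in the same fits. Of 16 listed genes, among them the Kv4 partners Dpp6 and Dpp10, the sulfonylurea receptors Abcc8 and Abcc9 and the axonal anchors Ank3 and Cntnap2, 12 were tested. Of these, 1 was higher in TRAP than in input and 2 were lower, against 19.6% and 22.5% of all genes, the median log2 ratio was -0.13, and none was called between KO and WT in TRAP or in input with edgeR. At an unadjusted p under 0.05, edgeR gave 1 of the 12 in TRAP, against 6.05% of all genes, and 0 in input, against 2.89%.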

How the data were processed

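TRAP and input libraries came from 3 pools of mice per genotype. Per the methods, the authors used TopHat to place reads on mm9 and HTSeq-count with Gencode vM1 to count them, and they deposited 1 table of raw counts per library, with no normalization. Reads with no gene, several genes or several places are listed apart and were left out here. A library whose label does not say input was taken as TRAP. Whether counting used strand is not given in the sources used here.

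Counts were tested with edgeR 4.0.16 (R 4.3.3, limma 3.58.1; TMM, filterByExpr, robust quasi-likelihood fits) over all genes, with Benjamini-Hochberg adjustment and a threshold of 0.05; members were read from those fits. Each genotype contrast used its own 6 libraries, and TRAP against input used all 12. The SE was derived from the F statistic. Ratios of single pools had 0.5 CPM added to each value. DESeq2 1.42.0, other size factors and filters, the mitochondrial genes left out, each pool left out and a block for the pool were the alternatives. Exact permutation tests used scipy 1.17.1, and 75-base stretches of exons were placed with minimap2 2.31, at most 2 mismatches. Tests were also tried on counts simulated without a pool effect, and no result here rests on that trial. Pools are the replicates, so p-values measure the spread between pools within a group. The main fits of TRAP against input did not pair the libraries of 1 pool, which only the fit with a block did.

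Genes named are the highest of each class per kb, the members with the largest called TRAP/input ratios, those with an unadjusted p under 0.05 between genotypes, those near the count threshold, 2 listed by the study, and members with a textbook place in these cells. Kcna3, Kcna6, Kcnh2, Kcnh5 and Kcnk13 were in part named after their values were seen. The members and lists were chosen with earlier results of these data known. TRAP and input libraries of 1 pool come from the same mice, and their deviations from the group means correlated at 0.058 to 0.106, above every TRAP and input pair from different pools of 1 genotype. Each library held between 3416030 and 5614089 counted reads. Intervals and floors cover counting error or the spread between pools, as stated with each. Some members are not reported here by name; they stay in the fits, counts and sums.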

Additional observations from a re-analysis of the deposited data

Results flagged for a closer look

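For 5 of the 66 genes the difference between KO and WT was not the same in TRAP and in input at an unadjusted p under 0.05, in the edgeR test of that difference over all 12 libraries. These are 7.58% of the members, against 2.71% of all genes, and leaving out each pool in turn gave 1 to 5 such genes, the 1 without KO pool 4. None passes the correction for all genes. Kcnj10 had a difference of log2 ratios of -1.21 (unadjusted p = 0.012, adjusted p = 1.0 with edgeR), with lower ratios in all 3 KO pools than in any WT pool. Kcnj10 measured 1.39 to 5.51 CPM in TRAP, and the summed astrocyte markers ran from 336 to 363 CPM in KO TRAP and from 324 to 420.0 CPM in WT TRAP. Their part in the Kcnj10 value was not tested. Kcng1 had a difference of 0.58 (unadjusted p = 0.021, adjusted p = 1.0 with edgeR). Kcng3 had a difference of 1.48 (unadjusted p = 0.032, adjusted p = 1.0 with edgeR), at 1.33 to 5.37 CPM in TRAP. Kcnh3 had a difference of 0.50 (unadjusted p = 0.034, adjusted p = 1.0 with edgeR), which ran from 0.32 (without KO pool 2) to 0.66 (without WT pool 2) when each pool was left out. Kcnmb4, a β subunit of BK channels, had a difference of 1.31 (unadjusted p = 0.037, adjusted p = 1.0 with edgeR), and 31.5% of its exons overlap a gene on the other strand. Leaving out each pool in turn moved the Kcnmb4 value from 0.79 (without KO pool 3) to 2.06 (without KO pool 2).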

How the results depend on the processing

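Alternatives were run for the genes with the largest called TRAP/input ratios and those with an unadjusted p under 0.05 between genotypes, and none of these changed direction. For the other genes named, the values under the alternatives were not compared. Between KO and WT TRAP, the count of genes called was 1 (Kcng1) with all genes of at least 1 count in any library, against 0 with the usual filter. Leaving out each pool in turn gave 0 to 1 called there, the 1 without WT pool 1, and 1 to 9 at an unadjusted p under 0.05, against 3 with all pools (9 without WT pool 1, 5 without KO pool 3 and 1 without KO pool 4). In input it gave 0 called and 1 to 3 at an unadjusted p under 0.05. Between TRAP and input it gave 0 to 3 higher and 6 to 18 lower in WT, the lowest without WT pool 3 (8 lower without WT pool 2), and 1 to 4 higher and 7 to 14 lower in KO, the lowest without KO pool 4; fewer samples enter these fits. Over both genotypes it gave 8 to 10 higher and 18 to 25 lower. For the difference of ratios it gave 1 to 5 at an unadjusted p under 0.05 (1 without KO pool 4, 2 without KO pool 2, 3 without WT pool 1 or WT pool 3). With the pool as a replicate block, 10 genes were higher and 26 lower over both genotypes, 6 and 18 in WT, 7 and 17 in KO, and 0 were called for the difference of ratios. WT and KO share only pool numbers, and their block gave 0 called in TRAP and 0 in input. The counts with a block or with a pool left out have no share of all genes beside them. They show how the calls move with the setting and are not read as results about the members. Of the genes' values under the alternatives, 334 kept their side of the threshold, 7 lost it and 2 gained it. Depth limits genes of a few CPM, whose intervals exceed 1 log2 unit.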
